A study of Mus musculus with 8 samples.

Results

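The EGF family ligands and ERBB receptors were followed in 4T1 cells, a mouse mammary carcinoma line, carrying an shRNA against Etv5 or a control shRNA. The 10 genes described were chosen by symbol: the 7 ligand genes Areg, Ereg, Hbegf, Tgfa, Btc, Epgn and Egf, and the 3 receptor genes Egfr, Erbb2 and Erbb3. All 10 have a row in the deposited table of 24787 rows. The groups were 4 shEtv5 libraries, whose genotype is given as an Etv5 knockdown, and 4 shcontrol libraries, given as wild type, all made from total RNA of cultured cells. Column names give each group a single construct name, and the labels do not say whether the cells were a clone or a pool or whether replicates were separate cultures. All p-values therefore measure the spread between these libraries, which may be technical. The values were taken, from their totals, as mean coverage along each gene scaled for depth (coverage values), so levels of different genes can be set side by side. The number of reads behind a value is unknown, and in bulk RNA fewer cells making a transcript and less transcript per cell cannot be told apart.

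The ligands of this family are made as membrane-anchored precursors, and proteases of the ADAM family cut them free. The ligands followed here bind the EGF receptor, and some of them also bind ERBB4. ERBB2 has no known ligand of its own and is the preferred partner of the other receptors, and ERBB3, whose kinase is weak, binds neuregulins. Active receptors signal through the RAS-ERK and PI3K-AKT routes. Transcription factors of the PEA3 group, to which ETV5 belongs, are known as targets of ERK signalling. In the mammary gland, amphiregulin, the product of Areg, is known for its part in the outgrowth of the ducts.

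No ligand or receptor gene passed a test for a difference between shEtv5 and shcontrol libraries. Hbegf, Areg and Tgfa supplied nearly all of the ligand coverage in both groups, Erbb2 most of the receptor coverage, and Egfr, Egf and Epgn lay close to 0, with Ereg at 0 in all 8 libraries. The widest departures among these genes were not between the groups but in a single library, shEtv5 replicate 3, in which Areg was at its highest of all 8 libraries and Hbegf, Tgfa, Btc, Erbb2 and Erbb3 were at their lowest. Results are therefore given over 8 libraries and over the 7 that remain without it.

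That library stood apart across the table as well. Its coverage values summed to 390495, against 254792 to 308393 in the other libraries, and it had the fewest genes above 0, at 13920 against 15126 to 15379. Etv5 itself was 11.1 ± 2.52 in shEtv5 libraries and 14.1 ± 1.65 in shcontrol libraries (SD, n = 4 each), and the groups overlapped, with a log2 fold change of -0.33 and an adjusted p of 0.819 by limma over 8 libraries, and of -0.17 and 0.422 over 7. By library it was 13.04, 11.23, 7.52 and 12.69 in the shEtv5 group and 15.15, 15.1, 11.65 and 14.39 in the shcontrol group. The overlap came from shcontrol replicate 3, and the other shcontrol libraries lay above every shEtv5 library. Leaving out shEtv5 replicate 3 and 1 other library gave log2 fold changes of -0.26 to -0.11 (adjusted p 0.0675 to 0.772 by limma). The lowest adjusted p was without shcontrol replicate 3. Etv5, the gene the labels name, thus had an adjusted p under 0.05 in none of these fits. Markers of the labelled cell type were present, except Krt5, which was at most 0.00564 in any library. The 9 epithelial markers, led by Krt18 and Krt8, summed to 2651 in shEtv5 replicate 3, to between 1150 and 1396 in the other shEtv5 libraries and to between 1153 and 1565 in shcontrol libraries. The 10 leukocyte markers, with Cd3e and Adgre1 at 0, summed to 7.78 in shEtv5 replicate 3, to between 6.24 and 7.16 in the other shEtv5 libraries and to between 7.41 and 9.72 in shcontrol libraries. The 6 endothelial markers summed to at most 0.125 in any library, with Emcn at 0. The 7 fibroblast markers, led by Pdgfra and with Dcn and Lum at 0, summed to 0.641 in shEtv5 replicate 3, to between 2.05 and 2.59 in the other shEtv5 libraries and to between 2.71 and 3.60 in shcontrol libraries. The group sums did not overlap for the fibroblast markers, nor, without shEtv5 replicate 3, for the leukocyte markers. The leukocyte sum came almost wholly from Cd14 and Cd68, with every other marker at 0.0489 or below. Pdgfra ran from 0.519 to 2.15 in shEtv5 libraries and from 2.54 to 3.54 in shcontrol libraries. Every other fibroblast marker was at 0.357 or below, and Col1a1 overlapped, at 0.0678 to 0.357 and 0.0548 to 0.168. The part of these genes in the results was not tested.

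By position, 4 of the ligand genes lie together on chromosome 5 of mm10, in the order Epgn, Ereg, Areg and Btc, over 376 kb. Gaps of 39.4, 46.0 and 209 kb separate them, and Areg spans 91139599 to 91148432 on the plus strand. Elsewhere, Tgfa lies on chromosome 6 (86195223 to 86275719, plus strand) and Erbb3 on chromosome 10 (128567523 to 128589652, minus strand). Within the stretch on chromosome 5 Areg was at 18.8 ± 2.08 and Btc at 2.68 ± 0.401 in shcontrol libraries (SD, n = 4 each), while Ereg, the nearest neighbour of Areg, was at 0. The lack of Ereg coverage beside Areg was the same in both groups. Of Areg, Hbegf, Btc, Epgn, Erbb2 and Erbb3, no 50-base stretch of the longest transcript occurs in a transcript of another gene, and for Tgfa 1.56% of stretches do.

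Upstream sequence was available for 7 of the 10 members in 8 windows (RefSeq, GRCm38.p6), and the 250 bases before each start were searched on both strands for 4 motifs. Areg is shown as the member that was highest in shEtv5 replicate 3, and Egfr because its window holds CCGGAA. That string is a form of the motif of the ETS family, to which ETV5 belongs, and other forms were not searched. Capitals mark the match. In Areg it is the cAMP response element TGACGTCA, starting 61 bases before the transcript start. In Egfr it is CCGGAA on the opposite strand, 119 bases before the start. The windows are chr5:91139349-91139598 for Areg and chr11:16751953-16752202 for Egfr, both on the plus strand and given 5′ to 3′.
Areg: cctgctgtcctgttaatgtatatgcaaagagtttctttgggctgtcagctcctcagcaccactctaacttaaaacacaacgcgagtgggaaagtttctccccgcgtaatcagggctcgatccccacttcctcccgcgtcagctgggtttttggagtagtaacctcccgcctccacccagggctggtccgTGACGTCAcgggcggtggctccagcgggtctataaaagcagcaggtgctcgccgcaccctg
Egfr: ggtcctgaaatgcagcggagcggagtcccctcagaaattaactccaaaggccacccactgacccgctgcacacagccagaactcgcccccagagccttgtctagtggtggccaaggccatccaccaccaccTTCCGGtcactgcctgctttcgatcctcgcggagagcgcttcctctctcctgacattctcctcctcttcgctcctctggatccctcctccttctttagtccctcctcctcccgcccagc

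TGACGTCA was present in 1.55% of all 32851 upstream windows and in 1 of the 8 family windows searched, which do not cover Hbegf, Ereg or Erbb3. CCGGAA was present in 12.03% of all windows and in 2 of the 8, those of Egfr and of the second start of Egf. The AP-1 motif TGANTCA (6.75% of all windows) and the NF-kB consensus (7.25%) had no match in these windows. The motifs do not overlap each other in the sequences shown. A match is a string of letters and says nothing of binding in these cells. A window without CCGGAA may still hold another form of the ETS motif.

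Hbegf, which encodes heparin-binding EGF-like growth factor, had the highest level of the family. Its coverage values were 48.3, 44.3, 26.7 and 48.0 in the shEtv5 libraries and 46.0, 46.5, 51.2 and 44.0 in the shcontrol libraries. The groups overlapped, and shEtv5 replicate 3 was the single low library. Over 8 libraries the mean was 41.8 ± 10.3 in shEtv5 libraries and 46.9 ± 3.07 in shcontrol libraries (SD, n = 4 each), with a log2 fold change of -0.20 (SE 0.20, adjusted p 0.879 by limma). Over 7 libraries the shEtv5 mean was 46.9 ± 2.24 (SD, n = 3), and the log2 fold change was under 0.01 in size (95% interval -0.19 to 0.19, adjusted p 0.998 by limma). On the scale of value + 1 that interval runs from 0.875-fold to 1.14-fold of the shcontrol level.

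Areg, which encodes amphiregulin, was 19.2, 17.7, 27.6 and 17.6 in the shEtv5 libraries and 18.4, 17.9, 21.8 and 17.1 in the shcontrol libraries. It was the only tested member with its highest value in shEtv5 replicate 3, and the next highest value was in shcontrol replicate 3. The log2 fold change was 0.10 over 8 libraries (SE 0.17, adjusted p 0.893 by limma) and -0.045 over 7 libraries (95% interval -0.26 to 0.17, adjusted p 0.831 by limma). Its direction therefore turned with that library, and neither value differed from 0 beyond the replicate spread.

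Tgfa, which encodes transforming growth factor alpha, was 21.3, 20.9, 6.12 and 20.3 in the shEtv5 libraries and 19.96, 19.7, 16.2 and 21.4 in the shcontrol libraries. The lowest library of each group was its replicate 3, and the other 3 shEtv5 libraries lay within the range of the shcontrol libraries. The log2 fold change was -0.29 over 8 libraries (SE 0.36, adjusted p 0.879 by limma) and 0.11 over 7 libraries (95% interval -0.11 to 0.34, adjusted p 0.575 by limma).

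Btc, which encodes betacellulin, was expressed at a lower level, at 2.16, 2.94, 0.613 and 2.47 in the shEtv5 libraries and 2.78, 2.84, 2.09 and 3.00 in the shcontrol libraries. The groups overlapped with and without shEtv5 replicate 3. The log2 fold change was -0.34 over 8 libraries (SE 0.27, adjusted p 0.879 by limma) and -0.061 over 7 libraries (95% interval -0.33 to 0.21, adjusted p 0.817 by limma).

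The remaining ligands were near the floor of the table. Egf was between 0.0707 and 0.126 in shEtv5 libraries and between 0.0459 and 0.160 in shcontrol libraries, and 19.5% of its 50-base stretches, taken along the longest transcript, are shared with the overlapping antisense genes 6330410L21Rik and Gm42697. The TruSeq v2 kit does not mark strand, so within the shared stretches reads of Egf and of those genes cannot be told apart. Epgn, which encodes epigen, was at 0 in shEtv5 replicate 3, between 0.0213 and 0.150 in the other shEtv5 libraries and between 0.0251 and 0.0759 in shcontrol libraries. Multiplied by the length of the longest transcript, the Epgn values came to at most 264 covered bases after scaling, against 20834 or more for Areg. Ereg, which encodes epiregulin, was listed at 0 throughout. No group difference could be seen at these levels, in either direction.

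Erbb2 was the leading receptor gene. Its coverage values were 9.44, 8.71, 4.64 and 10.8 in the shEtv5 libraries and 10.1, 8.96, 8.27 and 8.52 in the shcontrol libraries. Apart from the low value in shEtv5 replicate 3 the libraries of both groups were interleaved. The log2 fold change was -0.13 over 8 libraries (SE 0.23, adjusted p 0.894 by limma) and 0.096 over 7 libraries (95% interval -0.13 to 0.33, adjusted p 0.643 by limma). Erbb2 in mm10 spans 98412470 to 98437716 on the plus strand of chromosome 11.

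Erbb3 was 4.35, 2.81, 0.0231 and 3.47 in the shEtv5 libraries and 3.78, 3.32, 1.88 and 3.51 in the shcontrol libraries. In shEtv5 replicate 3 it was 154-fold below the mean of the other 3 shEtv5 libraries. That value corresponds to 139 covered bases on its longest transcript after scaling, where the other shEtv5 libraries had between 16889.8 and 26145. The log2 fold change, which understates such a drop because 1 is added to each value, was -0.38 over 8 libraries (SE 0.48, adjusted p 0.879 by limma) and 0.15 over 7 libraries (95% interval -0.26 to 0.57, adjusted p 0.689 by limma).

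Egfr, the receptor that these ligands bind, was 0.185, 0.198, 0.0249 and 0.199 in the shEtv5 libraries and 0.166, 0.142, 0.184 and 0.281 in the shcontrol libraries. Its mean in the shcontrol libraries, 0.193 ± 0.0608 (SD, n = 4), stood beside 8.95 ± 0.793 for Erbb2, and the gene did not pass the filter for the test across genes. Its group difference had p = 0.571 over 8 libraries and p = 0.971 over 7 by the exact permutation test, two-sided. The highest Egfr value in any library was 0.281, in cells where Hbegf, Areg and Tgfa each ranked in the upper part of the tested genes. Protein was not measured.

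**Figure D1:**
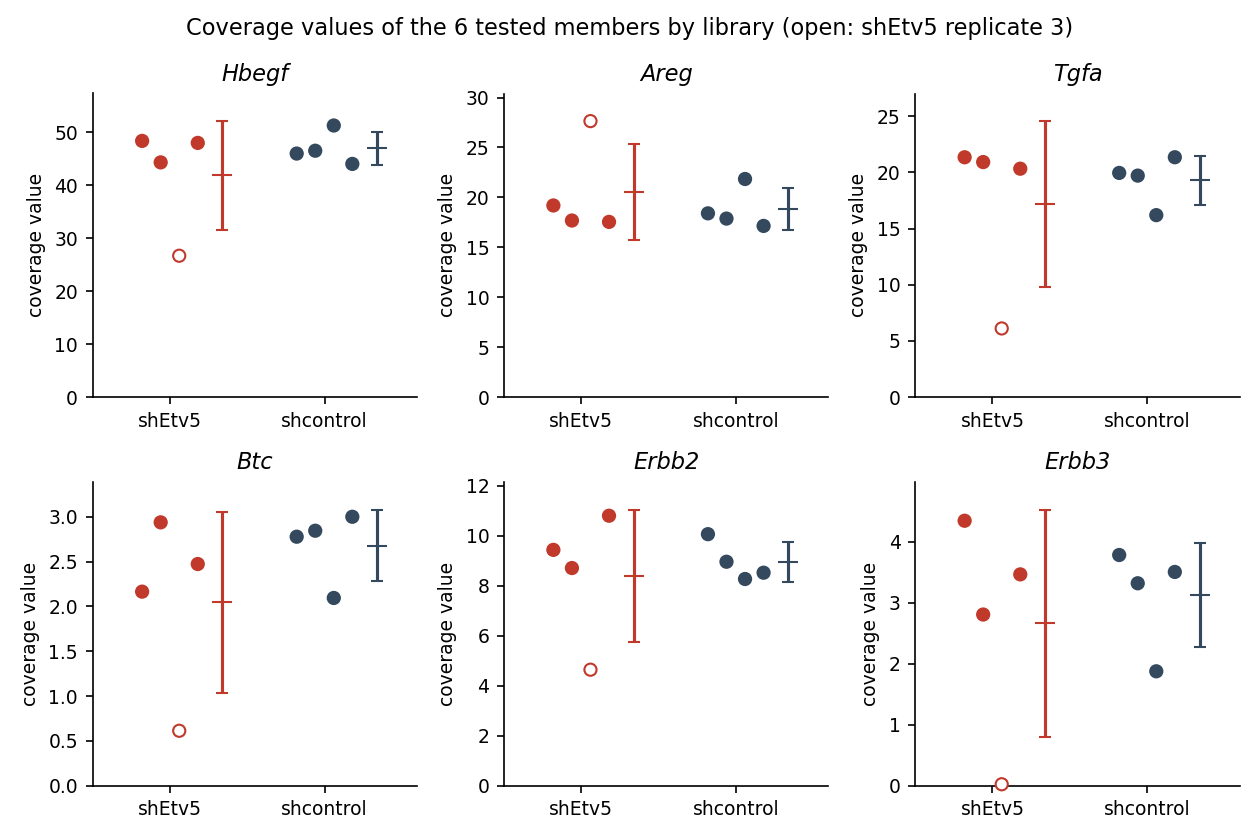
Coverage values of the 6 tested members in each library, shEtv5 left and shcontrol right in each panel, with the group mean and SD (n = 4) beside the points and a y axis that starts at 0. The open circle is shEtv5 replicate 3, which is highest for Areg at 27.6 and lowest for the other 5, down to 0.0231 for Erbb3, while the filled shEtv5 points overlap the shcontrol points in every panel.

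Across the family, 6 of the 10 members passed the filter of 0.5 or more in at least 4 libraries. None of the 6 was called higher or lower at an adjusted p under 0.05 by limma over 8 libraries, where 0.00852% of the 11731 genes tested were called higher and 0.486% lower. None was called over 7 libraries either, where 1.08% of genes were called higher and 2.05% lower. At an unadjusted p under 0.05 limma also gave 0 members in both fits, with a lowest p of 0.234 over 8 libraries and 0.286 over 7. Exact two-sided permutation tests of the 9 members with any coverage ran from p = 0.343 to p = 0.886 over 8 libraries and from p = 0.257 to p = 1.0 over 7, where the smallest p possible is 0.0286 in both designs. The groups did not overlap for 0 of the 6 tested members over 8 libraries and for 0 over 7, and for 9.1% and 20.2% of all genes tested. The median log2 fold change of the 6 was -0.24 over 8 libraries, beside -0.11 for all genes tested, and 0.048 over 7 libraries, beside less than 0.01 in size for all. A miss of the threshold does not show that a gene is the same in both groups. Over 7 libraries the single-gene 95% intervals of the 6 tested members reached down to 0.795-fold, for Btc, and up to 1.48-fold, for Erbb3. These folds are on the scale of value + 1, which understates changes of genes at low levels. The 4 members under the filter have no interval.

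**Figure D2:**
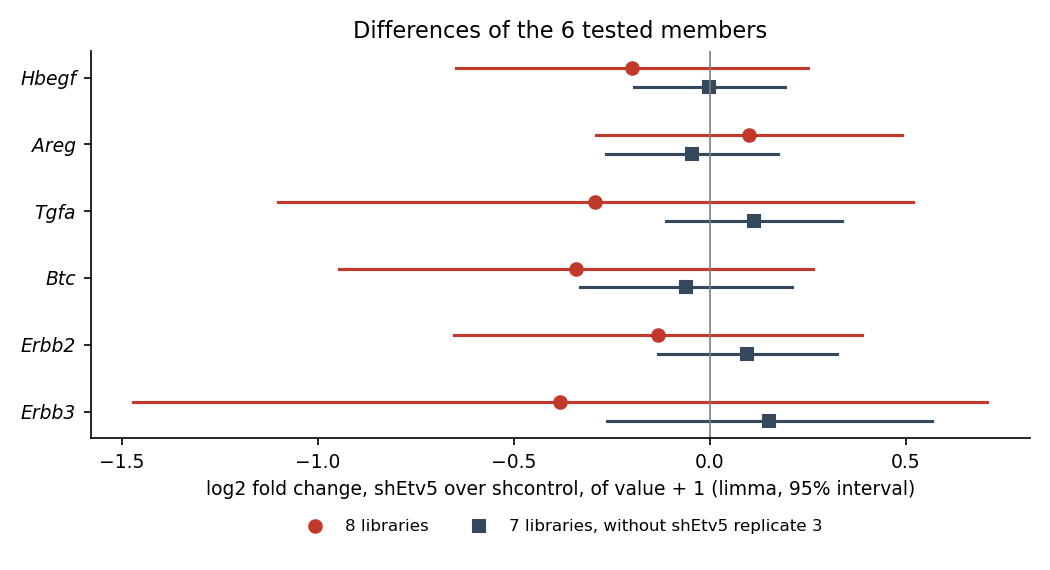
Log2 fold change of value + 1, shEtv5 over shcontrol, with its 95% interval from limma, for the 6 tested members over 8 libraries (circles) and over the 7 libraries without shEtv5 replicate 3 (squares). All 12 intervals include 0, and those over 7 libraries are narrower; the widest, for Erbb3, runs from -1.47 to 0.71 over 8 libraries and from -0.26 to 0.57 over 7.

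The order of levels in the shcontrol libraries was Hbegf, Tgfa, Areg, Erbb2, Erbb3, Btc, Egfr, Egf, Epgn and Ereg. Hbegf stood among the top 8.59% of tested genes by shcontrol mean, Tgfa and Areg among the top 25.5% and 26.0%, and Erbb2 near the middle, at 48.5%. Several neighbours in this order were not separated. Tgfa was above Areg in 3 of the 4 shcontrol libraries, Erbb3 above Btc in 3 of 4 and Egf above Epgn in 2 of 4, with overlapping ranges. Egfr was above Egf in all 4, although the ranges over libraries overlapped. Hbegf was above Tgfa, Areg above Erbb2, Erbb2 above Erbb3 and Btc above Egfr in all 8 libraries.

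Shares within the family showed the same pattern without reference to library scaling. Hbegf made up 53.0%, 51.5%, 43.6% and 54.2% of the summed ligand coverage in the shEtv5 libraries and 52.6%, 53.4%, 56.0% and 51.4% in the shcontrol libraries. Areg made up 21.03%, 20.6%, 45.2% and 19.8% in the shEtv5 libraries and 21.1%, 20.5%, 23.9% and 20.03% in the shcontrol libraries, so that in shEtv5 replicate 3 alone it reached the level of Hbegf. Tgfa was 9.997% of the ligand sum in that library, between 23.0% and 24.3% in the other shEtv5 libraries and between 17.7% and 24.9% in the shcontrol libraries. Together the 3 ligands made up between 96.4% and 98.8% of the sum in every library. Erbb2 made up 67.6%, 74.3%, 99.0% and 74.7% of the receptor sum in the shEtv5 libraries and 71.8%, 72.1%, 80.1% and 69.2% in the shcontrol libraries.

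**Figure D3:**
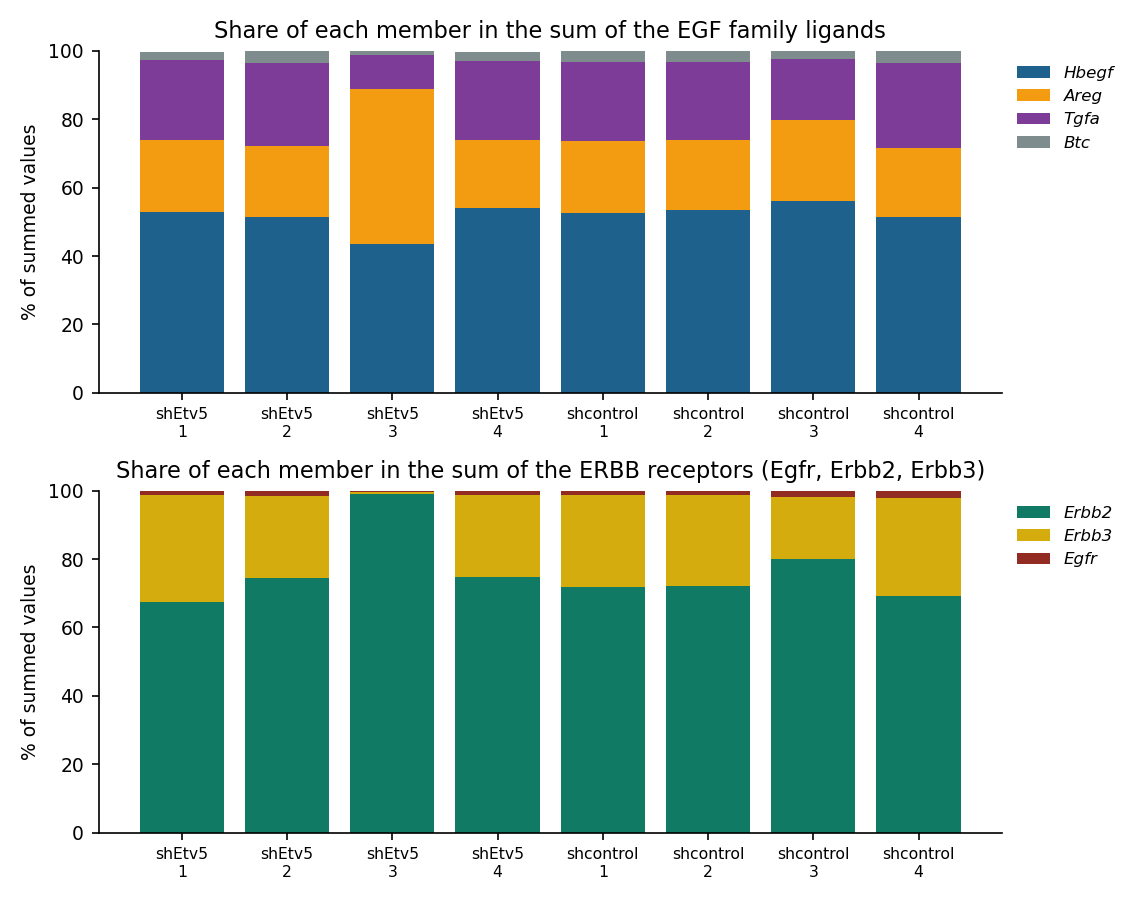
Share of each ligand in the summed coverage of the 7 ligands (top) and of each receptor in that of the 3 receptors (bottom), as % per library, the shEtv5 libraries on the left and the shcontrol libraries on the right; Egf and Epgn fill the thin remainder of the upper bars. Areg takes 45.2% of the ligand sum in shEtv5 replicate 3 and at most 23.9% in any other library, and Erbb2 99.0% of the receptor sum there and at most 80.1% elsewhere.

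The departure of shEtv5 replicate 3 went with transcript length. Against the median of the other shEtv5 libraries, on log2(value + 1), this library was higher by a median of 0.42 among tested genes with transcripts of 43 to 2051 bases, and its median was -0.29 from 2052 to 3262 bases, -0.65 from 3264 to 4680 bases and -1.09 from 4682 bases up. Areg, with the shortest longest transcript of the family at 1215 bases, deviated by 0.62. Hbegf (2890 bases) deviated by -0.82, Btc (4027 bases) by -1.11, Tgfa (4527 bases) by -1.62, Erbb2 (5012 bases) by -0.89 and Erbb3 (6016 bases) by -2.13. Erbb2 lay above the median of its length class, while Tgfa and Erbb3 were among the lowest, with 6.09% and 4.84% of the genes of their length classes deviating further down. In shcontrol replicate 3 the deviations from the other shcontrol libraries were 0.28 for Areg, 0.15 for Hbegf, -0.31 for Btc, -0.28 for Tgfa, -0.10 for Erbb2 and -0.65 for Erbb3, on the same side as in shEtv5 replicate 3 for 5 of the 6 members. What made these libraries differ was not tested.

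**Figure D4:**
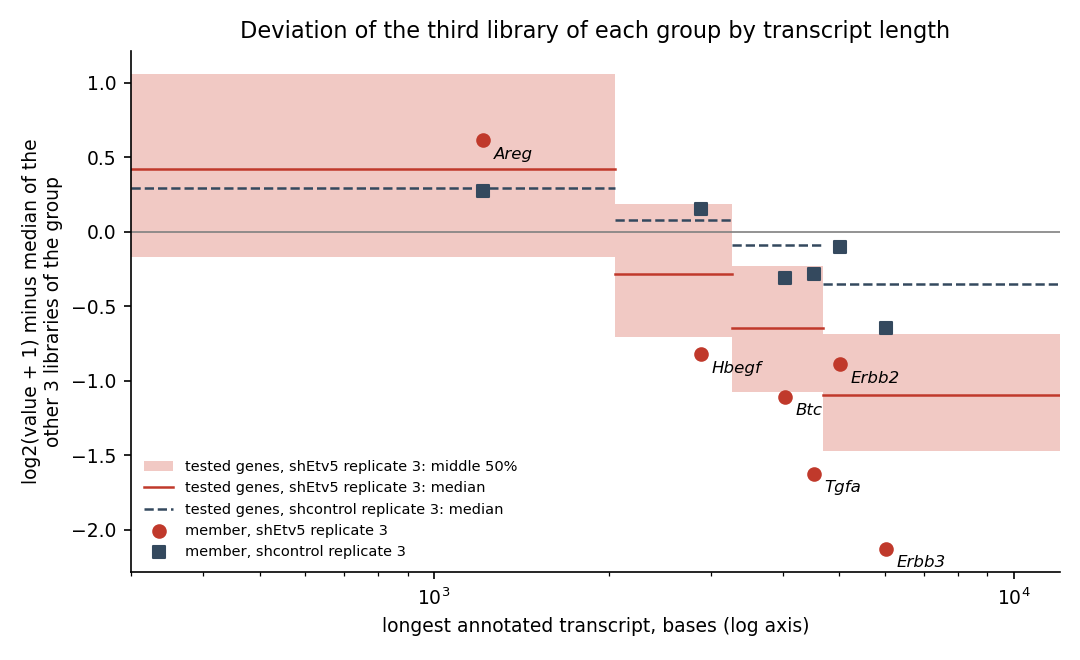
Difference of log2(value + 1) in the third library of each group from the median of the other 3 libraries of that group, against the length of the longest annotated transcript on a log axis. Circles (shEtv5) and squares (shcontrol) are the 6 tested members, bands and lines the middle 50% and medians of tested genes in 4 length classes, drawn over the plotted range of lengths; the circles run from 0.62 for Areg to -2.13 for Erbb3.

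Beyond the members, 6 lists of 77 genes for the rest of the pathway held 73 tested genes. Over 8 libraries 0 of the 73 were called higher and 1 was called lower, the early response gene Ier3, beside 0.00852% and 0.486% of all genes tested. Over 7 libraries 2 were called higher and 3 lower by limma, beside 1.08% and 2.05% of all genes tested, and nothing particular to the lists is read from these counts.

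Among the neuregulins and the fourth receptor, Nrg3 and Erbb4 were at 0 throughout, and Nrg1, Nrg2 and Nrg4 were tested and not called. Nrg1, whose product binds ERBB3 and ERBB4, was 2.05, 2.07, 0.371 and 1.88 in the shEtv5 libraries and 0.917, 1.44, 0.978 and 1.37 in the shcontrol libraries. Without shEtv5 replicate 3 all shEtv5 values lay above all shcontrol values, as for 20.2% of genes, and the log2 fold change was 0.47 (SE 0.11) with an adjusted p of 0.058 by limma. With each library's trend with transcript length also removed, limma gave a log2 fold change of 0.41 at an adjusted p of 0.043. Nrg1 was singled out after its values were seen, and the choice of setting decides its call.

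The list for ligand release held 11 tested genes, of which none was called over 8 libraries and Adam8 fell and Adam12 rose over 7. Adam8, a metalloprotease gene, was 8.62, 7.94, 5.36 and 8.59 in the shEtv5 libraries and 13.7, 11.8, 10.8 and 11.8 in the shcontrol libraries. The groups did not overlap with or without shEtv5 replicate 3, as for 9.1% of all genes tested over 8 libraries and 20.2% over 7. For Adam8 the log2 fold change over 7 libraries was -0.47 (SE 0.10, adjusted p 0.0333 by limma). Adam12, another gene of that family, was 4.13, 4.52, 1.35 and 3.99 in the shEtv5 libraries and 2.46, 2.45, 1.38 and 2.81 in the shcontrol libraries, with a log2 fold change of 0.69 over 7 libraries (SE 0.15, adjusted p 0.0447 by limma). Over 8 libraries the adjusted p was 0.342 for Adam8 and 0.876 for Adam12. Of the main sheddases of the EGF family ligands, Adam17 and Adam10 were not called in either fit.

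In the list for receptor attenuation, 14 genes were tested and Lrig1 alone was called, as lower over 7 libraries. Lrig1 encodes a transmembrane protein that restrains ERBB receptors. It was 29.3, 27.1, 7.33 and 29.0 in the shEtv5 libraries and 41.9, 39.7, 34.5 and 40.0 in the shcontrol libraries, with a log2 fold change of -0.44 over 7 libraries (SE 0.090, adjusted p 0.0339 by limma) and an adjusted p of 0.702 over 8. Errfi1, which encodes a feedback inhibitor of the EGF receptor and was named after its values were seen, was 57.9 ± 16.8 in shEtv5 libraries and 63.2 ± 5.78 in shcontrol libraries (SD, n = 4 each) and was not called. None of the 19 tested genes for adaptors and the RAS-RAF-MEK-ERK cascade and none of the 10 for the PI3K-AKT arm was called in either fit. Their median log2 fold changes were -0.16 and -0.12 over 8 libraries, beside -0.11 for all genes. Over 7 libraries they were 0.082 and 0.097, beside less than 0.01 in size for all genes. With the length trend also removed they were 0.040 and 0.030.

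The list of ERK output genes held 16 tested genes. Ier3 was 49.6, 42.4, 37.4 and 53.0 in the shEtv5 libraries and 87.4, 85.8, 108 and 86.3 in the shcontrol libraries. It fell by 1.001 on the log2 scale over 8 libraries (adjusted p 0.0338 by limma) and by 0.91 over 7 (adjusted p 0.00352 by limma). Spry1, which encodes an inhibitor of receptor tyrosine kinase signalling, was 27.3, 25.9, 12.004 and 26.5 in the shEtv5 libraries and 18.5, 18.6, 18.1 and 16.1 in the shcontrol libraries. It was called higher over 7 libraries, at a log2 fold change of 0.55 (SE 0.082, adjusted p 0.00826 by limma), and not over 8, at an adjusted p of 0.879. The other 14 were not called in either fit, among them Egr1, Fos, Fosl1 and Dusp6.

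These calls depend on few libraries. With shEtv5 replicate 3 and 1 further library left out, Ier3 was called in 7 of 7 fits and Spry1 in 6 of 7, the exception being without shEtv5 replicate 1 (adjusted p 0.0674 by limma). Adam8 and Lrig1 were called in 1 of 7, without shcontrol replicate 3, and Adam12 in 2 of 7, without shcontrol replicate 3 or 4. Over 8 libraries the call of Ier3 was lost when any library other than shEtv5 replicate 3 was left out (adjusted p 0.0692 to 0.151 by limma), and also with median-of-ratios scaling (0.0723), equal sums (0.150), the replicate block (0.0847) or the length trend removed (0.0997). Its log2 fold change in those fits stayed between -0.83 and -1.09, beside -1.001 over 8 libraries. With the length trend removed, Adam8 and Adam12 were called over 8 libraries as well as over 7. Over 7 libraries that setting added Nrg1, Adam9 and Pik3cb as higher and Mapk3 as lower.

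**Figure D5:**
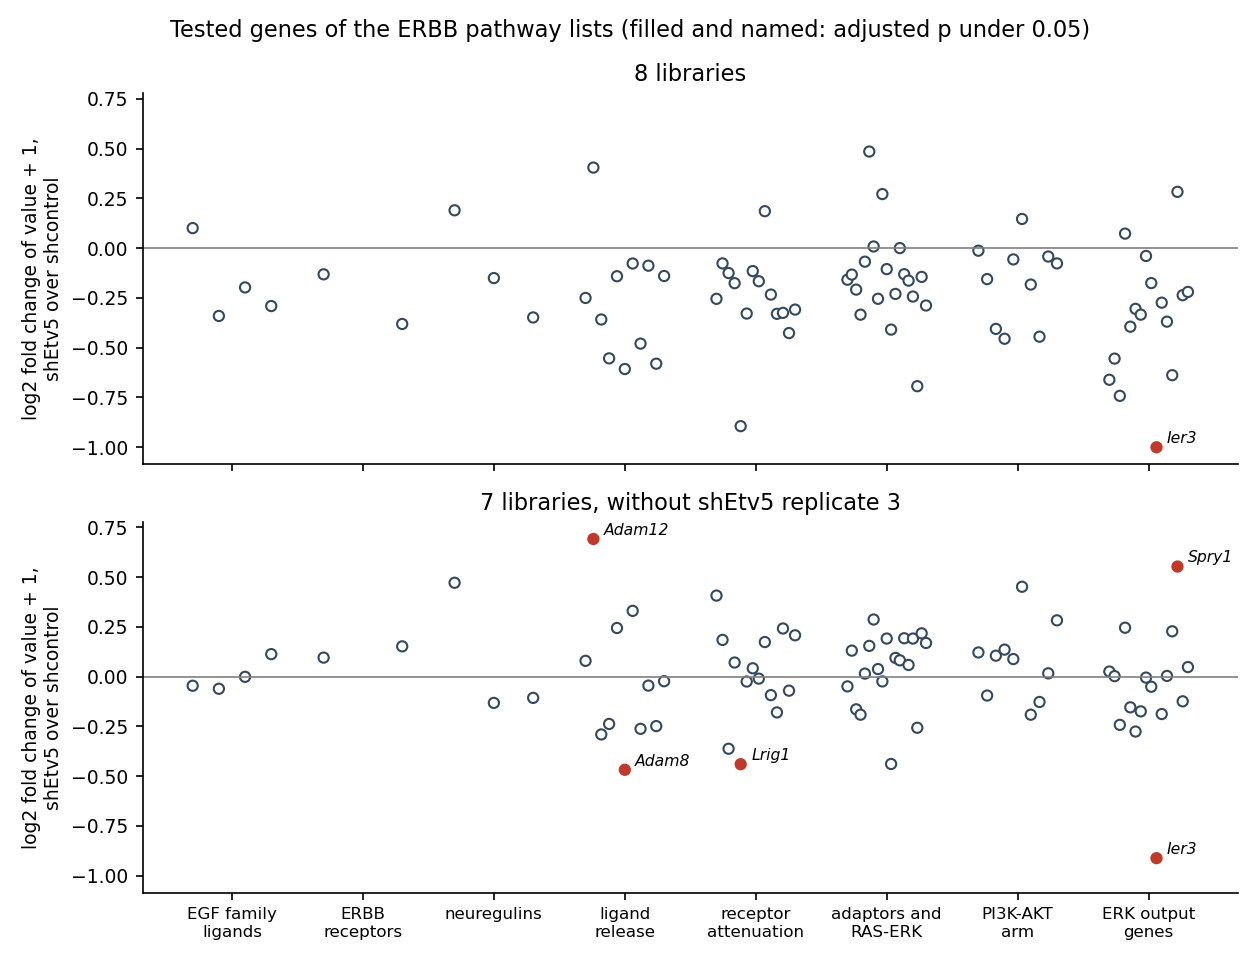
Log2 fold change of value + 1, shEtv5 over shcontrol, of every tested gene in the ligand and receptor lists and the 6 other pathway lists, over 8 libraries (top) and over the 7 without shEtv5 replicate 3 (bottom). Filled, named points have an adjusted p under 0.05 by limma: Ier3 at -1.001 in the upper panel, and Adam12, Spry1, Adam8, Lrig1 and Ier3 in the lower; no ligand or receptor gene is filled.

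To describe which genes varied most like a member, Btc was taken, as the tested member with the lowest p over 8 libraries. Over the 7 libraries, the genes of mean 5 or more whose log2 values followed Btc most closely were Ulk2 (Pearson r 0.95), Ripk1 (0.92), Slc9a8 (0.91), Prkar2b (0.91) and Twsg1 (0.91), out of 7394 genes compared. The same pairs over 8 libraries had r between 0.97 and 0.99. The values share libraries and their scaling, and with so many genes compared some high values would be found in any case.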

How the data were processed

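RNA from 8 libraries was sequenced on an Illumina NovaSeq instrument after TruSeq v2 preparation, per the labels' protocols. Alignment used STAR 2.7.10a and mm10, per the submitters' processing notes. What the authors deposited is a signal, one value per gene and library made from coverage tracks, per the file headers. The products of value and transcript length total 739 to 769 megabases in each library, so the values were taken as mean coverage scaled for depth. The program that averaged the coverage and its annotation: not given in the sources used here. Read depth is unknown. Groups and replicate numbers came from sample titles.

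From these values log2(value + 1) was computed, a gene had to reach 0.5 in 4 libraries to be kept (11731 did), and the whole table was fitted with limma 3.58.1 in R 4.3.3, with a trend in the prior variance and no covariate; p-values were adjusted by Benjamini-Hochberg and genes called at an adjusted p under 0.05. Single members also had an exact two-sided permutation test. Transcript lengths and coordinates came from GENCODE mouse release 21 (mm10), which matched 97.7% of rows. The fit was tested on 5 simulated sets with independent normal noise, in which some genes were lowered by more than any member differed here. Those sets held no deviant library and no trend with transcript length, so they do not show how the fit performs on these data. The members, the lists, the rule for named genes (all 10 members; up to 4 called genes a list and direction; Etv5; 5 genes most like the member with the lowest adjusted p, a tie broken by p) and the settings were chosen with earlier results of these data known. A planned search for the EGF-like spacing of cysteines was not run, since protein sequences were not used here. Alternatives were median-of-ratios scaling, equal sums, quantile normalisation, no filter, a filter at 1, 0.1 as pseudocount, removal of the trend with transcript length by lowess (span 0.3), a block for replicate number, and each library left out in turn. Chosen after seeing the data were fits without shEtv5 replicate 3 combined with median-of-ratios scaling, with the block, or with another library left out.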

Additional observations from a re-analysis of the deposited data

Results flagged for a closer look

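For the members and 4 summary measures of the family, each group of 4 libraries was searched for a lone extreme value, by Dixon's ratio of gap to range and its 95% critical value. Of 26 groups 5 passed, and in all 5 the library was shEtv5 replicate 3, which was already known to stand apart. Chance flags about 1 in 20 independent groups, but these share values, since Areg and Tgfa also enter the ratios, so the count is a description only. Areg was highest there, at 27.6 (ratio 0.837). Tgfa was lowest, at 6.12 (ratio 0.933), and so was Egfr, at 0.0249 (ratio 0.920). The ratio of Hbegf to Areg was 0.965 in that library, against 2.50 to 2.73 in the other shEtv5 libraries and 2.35 to 2.60 in the shcontrol libraries. The ratio of Tgfa to Areg was 0.221 there, against 1.11 to 1.18 in the other shEtv5 libraries and 0.742 to 1.25 in the shcontrol libraries. Hbegf, Btc, Erbb2 and Erbb3, with low values in the same library, did not pass. The part of transcript length in these departures was not tested beyond the values given.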

How the results depend on the processing

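No tested member was called under any of the 26 alternatives, with adjusted p of at least 0.404 by limma throughout. Median-of-ratios scaling moved the median of all genes to 0.023, from -0.11. Of 156 member values, 108 kept their direction and 48 changed it, the reversed log2 fold changes reaching 0.27 for Erbb3. Apart from left-out libraries, the values over 1.5 times those reported in the same direction were -1.02 for Erbb3 and -0.55 for Btc with a pseudocount of 0.1, 0.27 for Areg with median-of-ratios scaling and -0.20 for Erbb2 with equal sums. Erbb2 was at 0.019 with median-of-ratios scaling, 0.032 with quantile normalisation and 0.045 with the length trend removed. Without shEtv5 replicate 3, length trend removed, the log2 fold changes were 0.015 for Hbegf, 0.083 for Tgfa, 0.051 for Erbb2 and 0.079 for Erbb3. With the replicate block they were 0.042, 0.036 and 0.063 for Hbegf, Tgfa and Erbb2, and with median-of-ratios scaling -0.027 for Areg and 0.018, 0.13, 0.11 and 0.16 for Hbegf, Tgfa, Erbb2 and Erbb3. Leaving out libraries gave -0.086 to 0.17 for Areg, -0.28 to 0.042 for Hbegf, -0.44 to 0.16 for Tgfa, -0.49 to 0.014 for Btc, -0.26 to 0.16 for Erbb2 and -0.64 to 0.27 for Erbb3. Exact permutation tests over 7 libraries, where the difference of means had turned, gave p = 0.771 for Areg, 0.286 for Tgfa, 0.971 for Egfr, 0.371 for Erbb2 and 0.600 for Erbb3.

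Of all genes, 1 was called higher and 57 lower over 8 libraries. Higher genes numbered 7 with median-of-ratios scaling, 0 with equal sums, 8 with quantile normalisation, 3 without a filter, 0 with a pseudocount of 0.1 (37 lower) and 22 with the length trend removed (92 lower). Without shEtv5 replicate 3 they were 429 (511 lower) with the length trend removed, 80 (211 lower) with the block and 140 (219 lower) with median-of-ratios scaling. Leaving out libraries gave 0 to 420 higher and 28 to 625 lower. The cause was not tested. Same-numbered libraries of the groups had correlated deviations of 0.55, 0.09, 0.79 and 0.51, and not every library followed its own number best, so the numbers were not taken as pairs; with the replicate block over 8 libraries 1 gene was higher and 50 lower. Without counts, the depth limit of low members is unknown.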

Other observations

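Genes that join the receptors to ERK, and genes that release the ligands, held some that were lower in every shEtv5 library than in every shcontrol library. The genes named here were not called over 8 or over 7 libraries and were picked after their values were seen. Adam17, which encodes the main sheddase of several EGF family ligands, was 13.4, 14.4, 4.87 and 11.7 in the shEtv5 libraries and 15.1, 15.2, 15.3 and 17.2 in the shcontrol libraries, with adjusted p of 0.802 over 8 libraries and 0.216 over 7 by limma. Frmd8, which encodes a partner of the iRhom proteins that bring ADAM17 to the cell surface, was 19.6, 16.4, 9.91 and 21.2 in the shEtv5 libraries and 24.3, 23.7, 22.4 and 21.5 in the shcontrol libraries. Shc1, an adaptor gene, was 32.5, 29.4, 8.68 and 32.9 in the shEtv5 libraries and 39.4, 38.98, 34.8 and 38.6 in the shcontrol libraries. Mapk3, which encodes ERK1, was 53.0, 47.0, 55.4 and 53.5 in the shEtv5 libraries and 62.9, 71.5, 79.1 and 65.9 in the shcontrol libraries, and shEtv5 replicate 3 was the highest of its group. Its log2 fold change was -0.44 over 7 libraries, with an adjusted p of 0.0544 by limma. Mapk3 was called lower over 7 libraries with the length trend removed. Groups without overlap were found for 9.1% of all tested genes over 8 libraries.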
